A study of Mus musculus with 25 samples.

Results

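The cells described here are lung fibroblasts that carried the transcript of Cthrc1, a secreted collagen triple helix repeat protein of injured tissue, together with abundant Col1a1, the chain of type I collagen. They came from 5 single-cell libraries of lineage-negative (Lin-) cells, a sort that leaves out leukocytes by CD45, endothelium by CD31 and epithelium by CD326. Members were chosen by their UMIs. A cell was a member if it held at least 2 Cthrc1 UMIs (unique molecular identifiers, one per captured transcript) and at least 10 Col1a1 UMIs, and no UMI of Upk3b, Cdh5 or Epcam, the markers of mesothelial, endothelial and epithelial cells. Cells needed 200 to 7500 detected genes and no more than 20% of UMIs from mitochondrial genes, and of the 12059 such cells 342 were members (2.84%). They were set against the 4725 other cells with at least 10 Col1a1 UMIs, called the other Col1a1 cells below.

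All mice carried Col1a1-Cre-ERT2 and Fas fl/fl, that is, a tamoxifen-inducible Cre recombinase under the Col1a1 promoter and a floxed death receptor gene. Bleomycin, which injures the lung and is followed by fibrosis, was instilled into the trachea of all but the naive mice. Tamoxifen was then given to the Fas-/- group, and its vehicle, corn oil, to the Fas+/+ group, so that deletion of Fas and tamoxifen cannot be told apart. Cells were harvested at 3 or 6 weeks. Each of the 5 conditions (naive, Fas+/+ and Fas-/- at week 3, Fas+/+ and Fas-/- at week 6) has 1 single-cell library from pooled mice and 4 bulk RNA-seq libraries, 20 in all. The age and sex of the mice are not given in the sources used here, and the study's methods take replicates to be individual animals, although no label ties a bulk library to a mouse.

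Fibrotic repair in the lung depends on fibroblasts that lay down fibrillar collagens and matricellular proteins around injured alveoli. A Cthrc1-bearing fibroblast state is known from fibrotic lungs as the one with the highest collagen transcripts, while resting alveolar lipofibroblasts carry Tcf21, Npnt, Limch1 and Inmt. Of the other markers of the state, Spp1 encodes osteopontin, a matricellular ligand of integrins, Grem1 encodes gremlin, a secreted antagonist of bone morphogenetic proteins (BMPs), Fst encodes follistatin, which binds activins, Thbs4 encodes a thrombospondin of the matrix, and Col11a1 encodes a chain of a minor fibrillar collagen.

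On GRCm38, Cthrc1 (ENSMUSG00000054196) lies at chr15:39076932-39087121 and Spp1 (ENSMUSG00000029304) at chr5:104435118-104441050, both on the plus strand. Grem1 (ENSMUSG00000074934) lies at chr2:113746164-113758646, Fst (ENSMUSG00000021765) at chr13:114452290-114458951 and Thbs4 (ENSMUSG00000021702) at chr13:92751590-92794818, all on the minus strand. Col11a1 (ENSMUSG00000027966) lies at chr3:114030540-114220718 on the plus strand. The proximal promoters of 4 of these markers, which were all higher in members than in other Col1a1 cells and rose in bulk at week 3, are shown as RefSeq gives them on GRCm38.p6: the 250 bases before each start site, 5′ to 3′ on the strand of the gene, at chr5:104434861-104435110 (Spp1), chr2:113758649-113758898 (Grem1), chr13:92794819-92795068 (Thbs4) and chr3:114030290-114030539 (Col11a1). Capitals mark matches on either strand to 4 short motifs. The letters of AP-1 were taken as TGANTCA. Those of the TEAD factors were GGAATG, those of the RUNX factors were TGTGGT, and those of the SMAD factors were CAGAC.
Spp1: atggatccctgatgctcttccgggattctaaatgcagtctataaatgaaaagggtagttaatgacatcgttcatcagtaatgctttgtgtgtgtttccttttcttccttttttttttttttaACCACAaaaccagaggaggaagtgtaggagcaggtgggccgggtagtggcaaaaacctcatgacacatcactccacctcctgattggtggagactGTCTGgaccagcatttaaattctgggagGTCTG
Grem1: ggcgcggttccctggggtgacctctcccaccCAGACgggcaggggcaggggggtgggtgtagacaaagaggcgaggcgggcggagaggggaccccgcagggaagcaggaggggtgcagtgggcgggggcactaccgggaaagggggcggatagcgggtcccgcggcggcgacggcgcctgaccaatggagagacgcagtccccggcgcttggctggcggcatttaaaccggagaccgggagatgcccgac
Thbs4: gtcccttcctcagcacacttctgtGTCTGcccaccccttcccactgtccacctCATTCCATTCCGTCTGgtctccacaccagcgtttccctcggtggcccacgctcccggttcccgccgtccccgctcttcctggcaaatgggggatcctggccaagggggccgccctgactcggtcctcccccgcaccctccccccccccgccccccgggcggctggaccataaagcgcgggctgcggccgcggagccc
Col11a1: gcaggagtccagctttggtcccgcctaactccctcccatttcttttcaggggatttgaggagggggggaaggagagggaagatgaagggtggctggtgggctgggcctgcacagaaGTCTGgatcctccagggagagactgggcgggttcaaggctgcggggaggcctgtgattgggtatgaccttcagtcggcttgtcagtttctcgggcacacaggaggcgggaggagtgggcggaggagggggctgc
The Spp1 window shown holds a RUNX match 128 bases and SMAD matches 33 and 5 bases before the start site, and Grem1 a SMAD match at 219 bases. Thbs4 holds SMAD matches at 226 and 186 bases and overlapping TEAD matches at 197 and 192 bases, and Col11a1 a SMAD match at 134 bases. RefSeq has another Spp1 window, at chr5:104435942-104436191, which holds a SMAD match at 41 bases and no other. Among all 32536 RefSeq promoter windows of that length, 6.73% hold the AP-1 letters, 12.6% the TEAD, 14% the RUNX and 42.2% the SMAD letters. Of 29 windows found for 25 of 33 genes (the 6 markers and the 30 genes highest in the members, which include 3 of them), 1, 3, 4 and 17 hold them.

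The labels of the single-cell libraries went against the bulk libraries. Over all kept cells, the level of Cthrc1 was 14.6 and 40.9 CPM (UMIs scaled to the total of the cells summed) in the libraries labelled week 3 Fas+/+ and Fas-/-, and 118 and 111 CPM in those labelled week 6 Fas+/+ and Fas-/-. The naive library was at 0.712 CPM. In bulk the order of the weeks was the opposite in Fas+/+ mice, where Cthrc1 fell by 3.58 on the log2 scale from week 3 to week 6 (SE 0.618, edgeR adjusted p = 0.000736), while in single cells it was higher by 2.94. The other 5 markers were also higher in the single-cell library labelled week 6 Fas+/+ (log2 2.78 to 4.06) and lower in week 6 bulk of the same genotype. In Fas-/- mice, Spp1 was 4.16 and Fst 2.46 higher in the single-cell library labelled week 6 but fell by 3.45 and 1.82 in bulk. Of the other markers in Fas-/- mice, Cthrc1, Grem1 and Thbs4 were higher by 1.42, 2.54 and 2.77 in single cells, with bulk differences of -1.01, -1.54 and -1.79 that were not called (edgeR adjusted p = 0.267, 0.189 and 0.192). Col11a1 was higher by 0.51 in single cells and by 0.16 in bulk (adjusted p = 0.907). Whether the week labels of the single-cell libraries are right was not tested, and comparisons of weeks in single cells are given by label only.

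The libraries also share cell barcodes. Between 91 and 289 barcodes are common to a pair of libraries, and 1540 of the 12059 kept cells (12.8%) carry a barcode found in another library, among them 350 of 603 naive cells (58.0%). Among the members this holds for 18 of 342, namely 4, 5, 6 and 3 in the libraries labelled week 3 Fas+/+, week 3 Fas-/-, week 6 Fas+/+ and week 6 Fas-/-, which is the order of all lists of 4 values below. Naive cells with shared barcodes had a median of 11972.5 UMIs, against 4520 without. In the other libraries the medians were 1133.5, 911.5, 797 and 758 UMIs against 8962, 6264, 7593 and 10858. Whether reads were assigned to the wrong library was not tested, since this needs the reads. Fas itself checks no label, since neither kind of file separates the floxed exon. Members held 54.0, 23.5, 40.9 and 37.7 CPM of Fas, and 52.2, 24.5, 68.1 and 54.5% of members had a Fas UMI. The other Col1a1 cells held 67.2, 37.1, 65.8 and 68.4 CPM. In bulk the level of Fas was 22.1 ± 1.25 CPM (SD, n = 4) in naive mice and 41.0 ± 11.3, 44.2 ± 14.2, 31.4 ± 6.24 and 40.4 ± 4.59 CPM in the same order of groups, and genotype gave no call at week 3 (edgeR adjusted p = 0.91) or week 6 (adjusted p = 0.719).

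No naive cell met the rule, and members were found in all 4 libraries of bleomycin-instilled mice. They numbered 23 of 2664 kept cells at week 3 Fas+/+ (0.863%, exact 95% binomial interval 0.548 to 1.29), 49 of 2608 at week 3 Fas-/- (1.88%, 1.39 to 2.48), 116 of 3240 at week 6 Fas+/+ (3.58%, 2.97 to 4.28) and 154 of 2944 at week 6 Fas-/- (5.23%, 4.45 to 6.10). In the naive library, 0 of 603 cells allows a share of up to 0.498% (3 cells of the total). Its exact 95% interval reaches 0.610% and so overlaps that of week 3 Fas+/+. The intervals of the 4 bleomycin libraries do not overlap, but they cover counting error only, and with 1 library per condition no test between conditions was possible. The rule also removed unequal numbers of cells at week 6. By Cthrc1 alone, 174 Fas+/+ and 168 Fas-/- cells held at least 2 UMIs. Of these, 34 and 8 had under 10 Col1a1 UMIs, and a further 24 and 6 had a UMI of Upk3b, Cdh5 or Epcam. Among cells that met all of the rule except for Cthrc1, the members made up 2.28, 5.48, 12.0 and 10.5% (of 1010, 894, 963 and 1465 cells), so that the order of the genotypes among the libraries labelled week 6 turned while their intervals (10.1 to 14.3 and 8.99 to 12.2) overlapped.

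**Figure D1:**
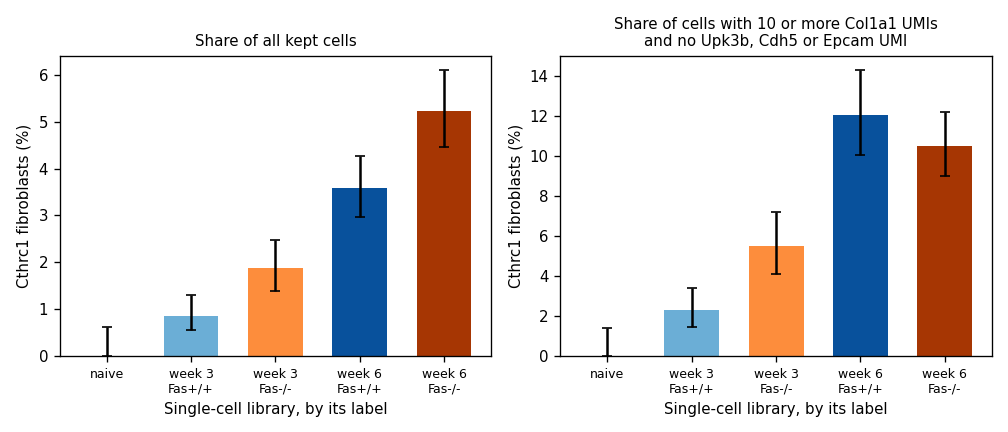
Share of members in each single-cell library, as a percent of kept cells and as a percent of cells that met the rule except for Cthrc1, with exact 95% binomial intervals. The bars of the libraries labelled week 6 reach 3.58 and 5.23% of kept cells, against 0.863 and 1.88% for week 3 and 0 for naive.

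The libraries differ in depth, so the shares were also computed at equal depth. When each cell was thinned to 4000 UMIs, with 140 to 948 shallower cells left out per library, the share was 0 of 463 naive cells (allowing up to 0.648%) and 0.634, 1.27, 3.09 and 3.64% in the others. Their intervals (0.338 to 1.08, 0.785 to 1.93, 2.42 to 3.89 and 2.87 to 4.55) overlapped between genotypes at both weeks. The exact interval of the naive library then reached 0.794%, above the share of 0.634% at week 3 Fas+/+. Without the shared barcodes, all 5 shares moved by less than their intervals. The members were deep cells, with a median of 17000, 10058, 33192 and 26062.5 UMIs, against 13123, 9468, 16296 and 14475 in the other Col1a1 cells. Their median Col1a1 was 71, 74, 318 and 264 UMIs, against 20, 21, 36 and 36.

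The threshold cut a graded range rather than a gap. With exactly 2 Cthrc1 UMIs, 57 members lay just inside it, and 221 cells with 1 UMI just outside. For Col1a1, 9 members had 10 to 14 UMIs, and 7 cells were left out at 5 to 9. Of 434 kept cells with at least 2 Cthrc1 UMIs, 55 had too little Col1a1 and 37 a UMI of an exclusion gene.

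The label of these cells was checked against the markers that the rule did not use. At least 3 of the 5 other markers were seen in 7 of 23, 11 of 49, 70 of 116 and 111 of 154 members (30.4, 22.4, 60.3 and 72.1%), against 0.361, 0.847, 7.01 and 4.78% of the other Col1a1 cells. All 5 were seen in 2, 1, 4 and 11 members, and 4, 6, 3 and 0 members had none. The members of the libraries labelled week 3 thus showed fewer of the markers per cell than those labelled week 6, but they were also sequenced to fewer UMIs per cell. After thinning to 4000 UMIs, which left 23, 46, 115 and 151 members, Spp1 was seen in 30.4, 28.3, 54.8 and 72.2%, Grem1 in 13, 26.1, 32.2 and 37.7% and Fst in 39.1, 37, 55.7 and 57.6%. Thbs4 was then seen in 26.1, 15.2, 22.6 and 33.1% and Col11a1 in 4.35, 17.4, 13 and 7.28%. At equal depth Spp1, Grem1 and Fst were thus seen in larger shares of the members labelled week 6, and Thbs4 and Col11a1 had no such order. The shares of the other Col1a1 cells were also larger at week 6 for these 3 genes. They were 5.60, 8.18, 37.3 and 43.8% for Spp1, 0.183, 1.68, 4.05 and 2.34% for Grem1, and 5.78, 6.73, 18.5 and 16.6% for Fst. Since the same cells were chosen and described, these are descriptions without a test.

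Cthrc1, which the rule used, stood at 711, 1009, 876 and 806 CPM in members and at 3.16, 7.83, 26.2 and 5.42 CPM in the other Col1a1 cells. Spp1 was the most abundant marker, at 242, 5804, 9973 and 25099 CPM in members against 96.3, 274, 4740 and 6546 CPM. The value of the library labelled week 3 Fas-/- came mainly from 1 cell, with 2650 of 3205 Spp1 UMIs (82.7%), and was 1124 CPM without shared barcodes. A Spp1 UMI was present in 56.5, 32.7, 87.9 and 96.1% of members, in 15.1, 16.4, 73.5 and 80.7% of the other Col1a1 cells, and in 10.4, 9.04, 59.7 and 58.3% of Cdh5-positive cells with under 10 Col1a1 UMIs, in which osteopontin is not a marker and whose median depth was 5174, 3641, 5334 and 4486.5 UMIs. In the libraries labelled week 6, a Spp1 UMI was thus common outside fibroblasts too, and the part of free RNA in these shares was not tested.

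Of the secreted antagonists, Grem1 was rarer than Fst outside the members. Grem1 stood at 72.8, 237, 324 and 496 CPM in members against 1.90, 8.25, 40.2 and 29.8 CPM, and was seen in 30.4, 36.7, 51.7 and 51.9% of members, 0.452, 2.33, 7.60 and 5.29% of the other Col1a1 cells and 0.803, 0.565, 1.79 and 1.59% of the Cdh5-positive cells. Fst stood at 143, 248, 611 and 635 CPM against 27.1, 40.4, 281 and 248 CPM, with a UMI in 65.2, 49.0, 83.6 and 87.7% of members and 11.3, 10.9, 31.9 and 26.8% of the others.

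The matrix markers Thbs4 and Col11a1 were present in a minority of members at high counts. Thbs4 stood at 474, 306, 493 and 724 CPM in members against 3.03, 6.56, 30.7 and 19.3 CPM in the others, yet 26.1, 20.4, 31.9 and 40.9% of members had a UMI. The 10% of members with the most Thbs4 held 51.5, 82.8, 84.9 and 69.9% of its UMIs. Col11a1 stood at 54.0, 103, 143 and 65.8 CPM against 0.758, 4.02, 3.54 and 0.308 CPM, in 13.0, 34.7, 19 and 13.0% of members, and the top 10% held 95.7, 45.6, 89.5 and 98.3% of its UMIs. Most UMIs of Thbs4 in each library, and of Col11a1 in 3 of the 4, were thus held by few members.

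**Figure D2:**
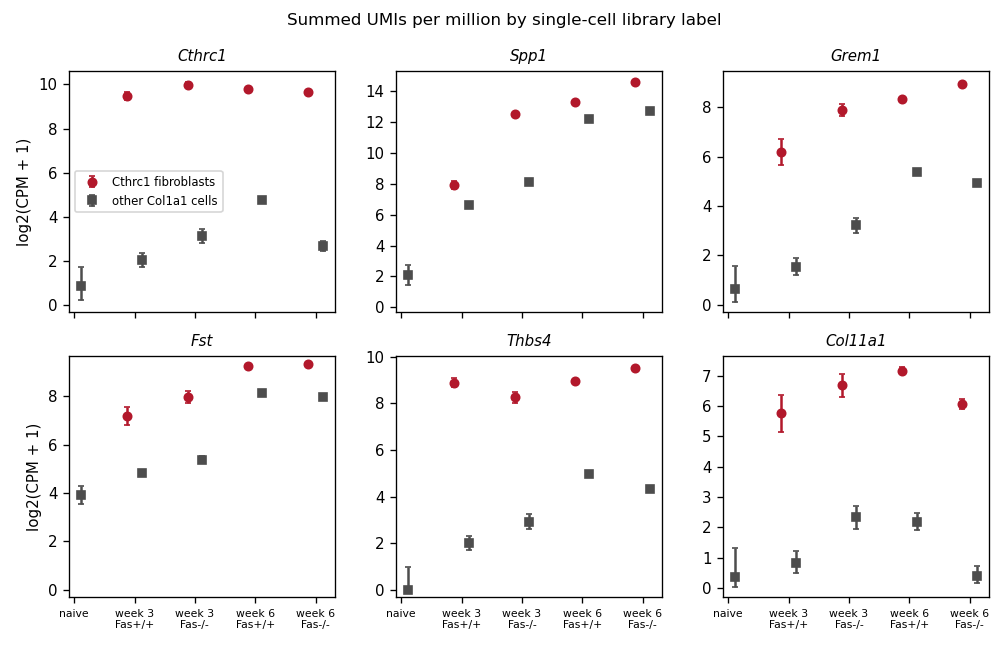
Level of the 6 markers in each single-cell library, log2(CPM + 1) of summed UMIs, in members (red circles) and other Col1a1 cells (grey squares), with exact 95% Poisson intervals that cover counting error only. The members lie above the other cells in every panel and library.

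Whether markers were seen in the same cell differed by pair and library. In the libraries labelled week 6, Col11a1 was seen in 31.7% of Grem1-positive and 5.36% of Grem1-negative members of Fas+/+ mice, and in 20 and 5.41% in Fas-/- mice. In those labelled week 3 the shares were 28.6 and 6.25% in Fas+/+ and 33.3 and 35.5% in Fas-/- mice, so that the pattern was absent in 1 of the 4 libraries. Grem1-positive members were deeper, at a median of 17000, 12395.5, 34145 and 30259 UMIs against 16680.5, 9368, 30270 and 22129. Grem1 was seen in 50, 40, 56.8 and 44.4% of Thbs4-positive and 23.5, 35.9, 49.4 and 57.1% of Thbs4-negative members, and Col11a1 in 50, 40, 13.5 and 20.6% against 0, 33.3, 21.5 and 7.69%. Each of these pairs went the other way in 1 of the 4 libraries. Across members, the correlation of log levels of Cthrc1 with those of Postn was 0.56, 0.50, 0.47 and 0.55 (Pearson r over 23, 49, 116 and 154 cells that share a library and its depth). With Spp1 it was 0.18, 0.07, -0.33 and -0.35.

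The cells that met all of the rule except for Cthrc1 were also ordered by their Cthrc1 UMIs, first in the 4 bleomycin libraries together (0, 1, 2, 3 to 9, and 10 or more UMIs; 3772, 218, 57, 124 and 161 cells). Col1a1 went from 3058 through 5823, 5960 and 8875 to 14816 CPM, and Grem1 from 14.9 through 66.6, 104 and 341 to 480 CPM. Thbs4 went from 7.62 to 878 CPM and Postn, the matricellular protein periostin, from 110 to 943 CPM. Inmt, a methyltransferase of resting alveolar fibroblasts, went the other way, from 2295 through 802, 168 and 110 to 33.5 CPM, and Tcf21, a transcription factor of lipofibroblasts, from 477 to 34.1 CPM. Spp1 stood at 3046, 11133, 24962, 26684 and 8774 CPM. The median depth was 29908 UMIs in cells with 10 or more Cthrc1 UMIs, against 12540.5 in cells without Cthrc1.

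The libraries add unequal numbers of cells to each band, so the ends of the range were also compared within each library. From cells without Cthrc1 to those with 10 or more UMIs, Col1a1 went from 2069 to 8405, 2826 to 13086, 3363 to 15362 and 3621 to 15041 CPM, and Grem1 from 0.522 to 49.2, 2.95 to 505, 25.4 to 465 and 22.4 to 542 CPM. Inmt went from 3346 to 275, 3033 to 306, 1770 to 11.2 and 1639 to 10.4 CPM. Col1a1 and Grem1 were thus higher and Inmt lower at the upper end in all 4 libraries. In the libraries labelled week 3, Inmt rose again at a step, from 75.6 to 275 CPM at 10 or more UMIs in Fas+/+ mice. In Fas-/- mice it rose from 322 to 447 CPM at 3 to 9 UMIs. Grem1 dipped at some step in each of the 4 libraries. It stood at 0.522, 0, 196, 37.8 and 49.2 CPM over the 5 bands in the library labelled week 3 Fas+/+ and at 25.4, 126, 55.8, 58.3 and 465 CPM in that labelled week 6 Fas+/+, where Col1a1 dipped to 4120 CPM at 2 UMIs. Spp1 was highest between the ends in the libraries labelled week 6, at 4143, 10959, 16510, 13493 and 7665 CPM in Fas+/+ and 5440, 14957, 38525, 39092 and 11492 CPM in Fas-/- mice. In those labelled week 3 it stood at 98.0, 587, 183, 66.2 and 337 CPM and at 241, 429, 141, 11277 and 2179 CPM, the fourth of these last values holding the cell with 2650 UMIs.

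**Figure D3:**
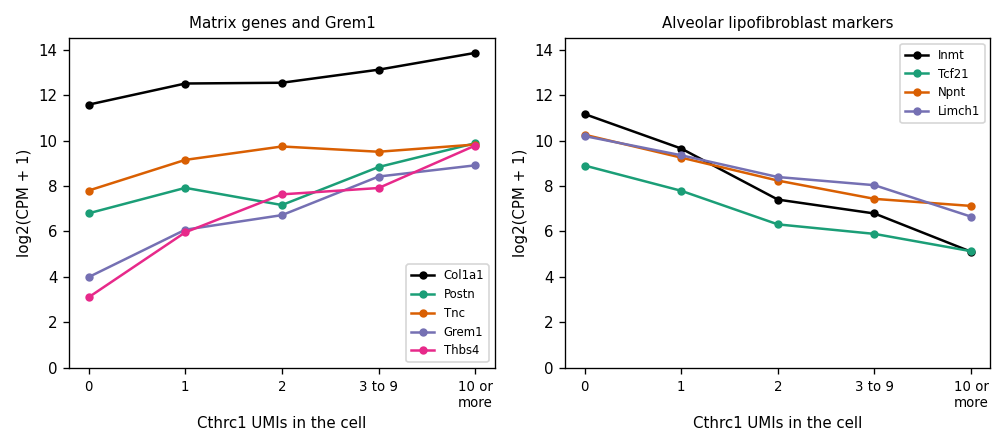
Level, log2(CPM + 1), of 5 fibrosis genes (left) and 4 lipofibroblast genes (right) by the number of Cthrc1 UMIs per cell, in cells of the 4 bleomycin libraries, summed, that met the rest of the rule. In these sums Col1a1 and Grem1 climb across the bands, which Grem1 did without a dip in none of the 4 libraries alone, and Inmt and Tcf21 descend from 2295 and 477 CPM to 33.5 and 34.1 CPM.

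Across the transcriptome, 55 of 3136 genes with at least 20 UMIs in the members of each library (1.75%) were more than 2-fold higher than in the other Col1a1 cells in all 4 libraries, and 166 of 11641 genes with at least 20 UMIs in the others (1.43%) were more than 2-fold lower. Ratios are of CPM with 10 CPM added, and the median over all measured genes was 0.01 on the log2 scale. Thbs4 led the list (log2 3.63 to 5.22), followed by Col8a1, a short-chain collagen of vessel walls and wounds, at 420, 359, 356 and 391 CPM against 6.89, 21.7, 33.4 and 23 CPM, and by Igfbp2, a secreted binding protein of insulin-like growth factors, at 533, 404, 243 and 139 CPM against 17.4, 34.7, 20.4 and 6.52 CPM. Grem1 (2.73 to 3.76) and Col11a1 (2.57 to 3.50) came next. Col8a1 and Igfbp2 are not among the 6 markers by which these cells are named.

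Genes of the matrix were among the others at the head of the list. Fbn2, a microfibril protein, stood at 65.7, 56.1, 80.4 and 87.9 CPM against 1.64, 4.02, 12.8 and 11.3 CPM, Postn at 732, 427, 923 and 511 CPM against 48.6, 76.8, 229 and 113 CPM, and Fmod, the small proteoglycan fibromodulin that binds collagen fibrils, at 702, 701, 452 and 395 CPM against 79.9, 118, 94.5 and 94.1 CPM. Piezo2, a mechanically gated ion channel, stood at 174, 150, 185 and 168 CPM against 16, 31.1, 44.3 and 35.5 CPM. Rflnb, a filamin-binding protein, Bpgm, an enzyme of 2,3-bisphosphoglycerate synthesis in red cells, Col7a1 of anchoring fibrils and the growth factor Pdgfc were also among the first genes, as was Cdkn2a, the locus of p16 and p19ARF. Cdkn2a stood at 84.5, 172, 32 and 71.3 CPM against 2.72, 9.52, 2.11 and 2.25 CPM.

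**Figure D4:**
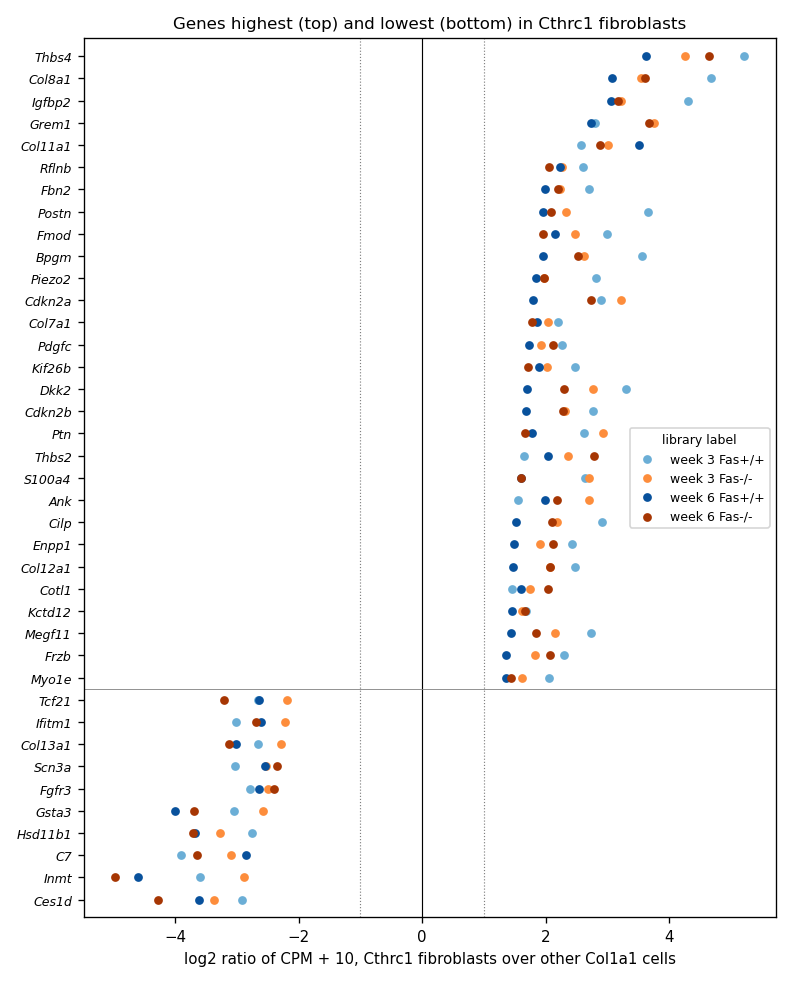
Log2 ratio of CPM + 10 in members over other Col1a1 cells, in each of the 4 bleomycin libraries, for 29 of the 30 highest genes (top) and the 10 lowest (bottom) by the least favourable library. Dotted lines mark 2-fold, and every point lies outside them, from 5.22 for Thbs4 to -4.97 for Inmt.

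Of the 10 genes lowest in the members, Inmt, Ces1d and Tcf21 are on the list of alveolar lipofibroblast markers. Inmt stood at 254, 373, 53.1 and 38.4 CPM against 3168, 2822, 1524 and 1511 CPM, Ces1d, a carboxylesterase of lipid handling, at 70.4, 52.5, 39.8 and 24 CPM against 597, 636, 602 and 653 CPM, and Col13a1, a transmembrane collagen, at 42.3, 56.1, 25 and 25.6 CPM against 319, 314, 272 and 300 CPM. The terminal complement component C7, the glucocorticoid-activating enzyme Hsd11b1, the glutathione transferase Gsta3, Fgfr3, the sodium channel Scn3a, Ifitm1 and Tcf21 were the others of the 10. Of 14 alveolar lipofibroblast markers, 11 were more than 2-fold lower in all 4 libraries, and the list summed to 2197, 2695, 2631 and 2174 CPM against 10953, 11135, 7906 and 8553 CPM. Lpl, lipoprotein lipase, did not follow the list, at 650, 431, 1165 and 1058 CPM against 224, 404, 580 and 564 CPM.

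Fibrillar collagens were higher in the members. Of 7 measured of 9 listed, 3 were past 2-fold higher in every library (Col1a2, Col5a1 and Col11a1), and the list had a median log2 ratio of 1.02, against 0.01 over all genes. Col1a1, which the rule used, is on the list but is not counted among the 7 measured. Col1a2 stood at 5223, 7546, 9668 and 8195 CPM against 2325, 2926, 3552 and 3527 CPM, while Col3a1 stood at 5282, 8220, 7429 and 6288 CPM against 2862, 4190, 4916 and 5311 CPM and was not past 2-fold. Of 12 measured nonfibrillar collagens, Col7a1, Col8a1, Col12a1 and Col15a1 were past 2-fold. Of 16 measured matricellular and provisional matrix genes, Tnc (tenascin C, log2 1.08 to 2.13), Postn, Spp1, Thbs2 and Thbs4 were.

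Genes that fold, modify and crosslink collagen differed less. None of 13 measured genes of collagen processing and crosslinking was past 2-fold higher in all libraries, a share near the 1.75% over all genes, but the list had a median log2 ratio of 0.37 and summed to 3733, 4654, 5823 and 5401 CPM against 3687, 3815, 4454 and 4559 CPM. Of 14 chaperones of the endoplasmic reticulum 0 were past 2-fold, with a median of 0.00031. Of the contractile genes 0 of 10 measured were, with a median of 0.42 and sums of 3679, 4810, 8394 and 6390 CPM against 3229, 3267, 6091 and 5296 CPM. Both the processing and the contractile lists thus summed to more in the members of every library. Acta2, smooth muscle actin and the classical myofibroblast marker, stood at 716, 791, 1759 and 1158 CPM in members against 499.6, 413, 1308 and 1034 CPM (log2 0.16 to 0.92). Myh11, the smooth muscle myosin, was lower in members, at 2.35, 9.05, 23.7 and 9.36 CPM against 38.7, 66.6, 131 and 127 CPM. Acta2 thus differed between the members and the other collagen-rich cells by less than 2-fold.

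Of the signalling lists, TGF-beta genes held 2 of 13 past 2-fold, the ligands Tgfb1 (log2 1.10 to 2.23) and Inhba, the activin subunit (1.10 to 2.65). The BMP and activin list held Grem1 and Fst of 7, with the ligand Bmp4 lower (58.7, 77.9, 56.0 and 28.6 CPM against 183, 184, 135 and 125 CPM). Among Wnt genes, the secreted inhibitors Frzb and Dkk2 were higher and the ligands Wnt2 and Wnt4 lower. Of the growth factor list, the receptors Pdgfra (230, 156, 196 and 145 CPM against 770, 646, 559 and 565 CPM) and Fgfr4 were past 2-fold lower, while Pdgfrb stood at 268, 223, 245 and 204 CPM against 90.0, 112, 150 and 124 CPM. Of 12 measured transcription factors, Runx1 (204, 192, 336 and 290 CPM against 43.0, 66.5, 142 and 119 CPM) and Scx, scleraxis of tendon, were higher.

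Among genes of survival and growth arrest, the cyclin-dependent kinase inhibitors Cdkn2a and its neighbour Cdkn2b were higher, 2 of 5 measured, while Cdkn1a was not (86.9, 148, 107 and 176 CPM against 169, 202, 191 and 191 CPM). None of 5 measured BCL2 family genes was past 2-fold, and no gene of extrinsic apoptosis was abundant enough to be measured in all libraries. No proliferation gene was measured in the members of every library either, and the list summed to 4.70, 3.62, 115 and 129 CPM against 19.1, 32.1, 67.1 and 68.2 CPM. Cycling transcripts were therefore found in members of the libraries labelled week 6 and were near the level of a few UMIs in those labelled week 3.

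Of 5 measured integrin subunits none was past 2-fold higher, and Itga8 was lower, at 122, 206, 78.9 and 51.2 CPM against 527, 511, 329 and 348 CPM. None of 6 measured metalloproteinases and TIMPs was past 2-fold higher either, with Timp1 at 246, 471, 1789 and 2461 CPM against 166, 155, 855 and 817 CPM, and Mmp3, a stromelysin, was lower (log2 -3.40 to -1.23). The red cell list summed to 21.1, 23.5, 6.51 and 2.51 CPM against 16.7, 21.7, 7.92 and 4.54 CPM, with the haemoglobin gene Hbb-bs its most abundant.

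Lists of other fibroblast states did not all go one way. The adventitial list, with Dcn its most abundant gene, summed to 10949, 5313, 4663 and 3831 CPM against 5979, 4033, 5536 and 4483 CPM, with Col15a1 past 2-fold higher and Rbp4 lower in all libraries. Its marker Pi16 stood at 958, 293, 129 and 69.2 CPM against 349, 142, 166 and 165 CPM, but 1 cell held 75.5, 53.7, 29.5 and 46.2% of its UMIs in members. The list of airway and ductal myofibroblasts summed to 1686, 1847, 1096 and 925 CPM against 845, 840, 1243 and 1148 CPM, with Lum, the proteoglycan lumican, past 2-fold higher. Both lists were thus above the other Col1a1 cells in the libraries labelled week 3 and below them in those labelled week 6. The pericyte list summed to 122, 110, 98.7 and 88.2 CPM against 258, 324, 373 and 303 CPM, and the vascular smooth muscle list to 98.6, 194, 564 and 602 CPM against 280, 299, 708 and 696 CPM.

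Of 10 inflammatory fibroblast markers, 4 were past 2-fold lower in all libraries and none higher. The list summed to 937, 570, 1646 and 1666 CPM against 3031, 2191, 4131 and 4007 CPM. The 4 were Saa3, Lcn2, Hp and C3, with the acute phase gene Saa3 at 2.35, 0, 92.9 and 16.9 CPM against 404, 125, 419 and 603 CPM. Ccl2, which recruits monocytes, was lower in 3 libraries but higher in that labelled week 6 Fas-/-, at 56.3, 3.62, 107 and 323 CPM against 94.3, 70.3, 192 and 190 CPM. Cells with a UMI of Upk3b, Cdh5 or Epcam were removed from the members but not from the other Col1a1 cells, so that lower sums of the next 3 lists are set in part by the rule. The mesothelial list summed to 25.8, 39.8, 19.3 and 18.5 CPM against 456, 339, 482 and 248 CPM. The endothelial list summed to 49.3, 86.9, 60.7 and 39.3 CPM against 114, 164, 204 and 85.1 CPM, with Ramp2 its most abundant gene and Cdh5 at 0 by the rule. The epithelial list summed to 7.24 to 18.8 CPM, with Cdh1 and Sftpb at 0 in members, and the immune list to 3.62 to 11.7 CPM, with Lyz2 its most abundant gene and Ptprc, Cd3e and Cd79a at 0. A doublet caller marked 38 of 12059 cells (0.315%) and no member, and whether it missed doublets was not tested. Apart from the members, 64 cells with at least 2 Cthrc1 UMIs carried a Cdh5 UMI, 54 of them in the library labelled week 6 Fas+/+, and these are not members. Cells with at least 2 Cthrc1 UMIs, at least 10 Col1a1 UMIs and a UMI of one of the 3 excluding genes numbered 3, 4, 24 and 6, and they are among the other Col1a1 cells of each library.

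Within the members, the pair of libraries labelled week 6 differed little. Of 9711 genes with at least 50 UMIs in the pair, 46 (0.474%) were more than 2-fold higher in Fas-/- and 23 (0.237%) in Fas+/+ members, with no test possible for 1 library each. Of the 6 markers, Fst (log2 0.05) and Cthrc1 (-0.12), which the rule used, differed least, and Grem1 (0.60) and Thbs4 (0.55) were somewhat higher in Fas-/- members. Spp1 was higher in Fas-/- members, 25099 against 9973 CPM, and Col11a1 in Fas+/+ members, 143 (exact 95% Poisson interval 132 to 156) against 65.8 CPM (58.4 to 73.8). These intervals cover counting error only, and a Col11a1 UMI was seen in 22 of 116 Fas+/+ and 20 of 154 Fas-/- members. In bulk at week 6 Col11a1 went the other way, higher in Fas-/- mice, a difference that DESeq2 called and edgeR did not.

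Of the 5 genes highest in Fas-/- members, 4 were chemokines, and the other was Gm26870, at 107 against 1.04 CPM with 79.4% of its UMIs in 1 cell. Cxcl10, an interferon-induced ligand of CXCR3, stood at 607 CPM (584 to 630) against 25 CPM (20.2 to 30.5), with a UMI in 41 of 154 and 17 of 116 members (26.6 and 14.7%), and Ccl7, a ligand that recruits monocytes, at 141 CPM (130 to 153) against 12.2 CPM (8.99 to 16.3), in 22.1 and 12.1% of members. For Cxcl10, 1 cell held 31.4% of the UMIs of Fas-/- and 64.6% of those of Fas+/+ members. For Ccl7 these shares were 25.7 and 29.8%, and the intervals cover counting error only. Cxcl9 stood at 204 CPM against 21.6 CPM, with 49.6% of its UMIs in 1 cell. Cxcl13 was at 417 CPM against 9.11 CPM, but 1 cell held 1822 of its 1824 UMIs, and in the other Col1a1 cells the order was the opposite (57.5 against 376 CPM). In bulk at week 6 none of the 4 was called between genotypes, with edgeR log2 differences of -0.92 for Cxcl10 (adjusted p = 0.763), -1.36 for Cxcl13 (0.667), -1.03 for Ccl7 (0.6) and 0.14 for Cxcl9 (0.997). Lowest in Fas-/- members were Saa3, the binding protein Igfbp5 (76.1 against 276 CPM), Aoc1 (with 59.7, 54.3 and 71.4% of the UMIs of Fas+/+ members in 1 cell for these 3), Tnxb and Mustn1, a small nuclear protein of muscle and bone, at 36.1 against 119 CPM and in 38.3 against 56.9% of members.

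The libraries labelled week 3 hold few members. Of 3002 genes, 41 (1.37%) were more than 2-fold higher in Fas-/- and 47 (1.57%) in Fas+/+ members. Spp1 led the former (log2 4.53), for the cell named above, while Nnat and Ifit1 also had 89.8 and 87.7% of their UMIs in 1 cell. Bc1, a short noncoding RNA, stood at 675 against 23.5 CPM, in 19 of 49 and 3 of 23 members, with 42.6% of its UMIs in 1 of the 49. Rpl10-ps3, a pseudogene whose reads cannot be told from those of its parent gene with certainty, stood at 547 against 77.5 CPM, in 45 of 49 and 12 of 23 members, with 8.28% of its UMIs in 1 cell. The other Col1a1 cells differed in the same direction for both (log2 2.41 and 2.09). Lowest were Gm12840, Ccl11, Ackr3, Polr2l and Ifi27l2a (log2 -2.84 to -1.74), where 1 of the 23 Fas+/+ members held 65.0, 53.5, 54.3, 15 and 41.1% of the UMIs. Between the libraries labelled week 6 and week 3, 227 of 8107 genes (2.8%) were higher and 131 (1.62%) lower in Fas+/+ members, and 247 of 8408 (2.94%) higher and 173 (2.06%) lower in Fas-/- members.

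The 5 genes highest at week 6 over week 3 in Fas+/+ members were Spp1 (log2 5.31), Hp, the haemoglobin-binding haptoglobin (4.23), the acute phase gene Saa3 (3.06), Actg2, a smooth muscle actin (3.00), and Timp1 (2.81). Hp had no UMI in the 23 members labelled week 3 and Saa3 and Actg2 had 1 and 2, and 1 cell held 59.7% of the Saa3 UMIs of the members labelled week 6. Lowest were Ackr3, an atypical chemokine receptor (-3.13), Pi16 (-2.80), Xist, the RNA of the inactive X chromosome (-2.48), the chemokine Ccl11 (-2.35) and Cdkn1c, a cell cycle inhibitor (-2.34). Of these, 1 of the 23 members labelled week 3 held 54.3, 75.5, 26.2, 53.5 and 51.2% of the UMIs. In the other Col1a1 cells Xist stood at 987 and 321 CPM in the libraries labelled week 3 and week 6 Fas+/+. Ddx3y, a gene of the Y chromosome, stood at 20.5 and 72.6 CPM there. Whether the mix of sexes differed between the pools was not tested. In Fas-/- members the highest were Cxcl13 (5.17), Ccl2 (4.61), Ccl7 (3.92) and the interferon-induced Ifi205 (2.74) and Ifi27l2a (2.72). Ccl7 and Ifi205 had no UMI in the 49 members labelled week 3, and Cxcl13 and Ccl2 had 1 and 2, so that these 4 ratios depend on the pseudocount. Cxcl13 rests on the cell named above, while Ifi27l2a was seen in 24.5 and 71.4% and Ccl2 in 4.08 and 25.3% of the members labelled week 3 and week 6. Lowest were Bc1 (-5.70), Nnat (-3.71), Inmt (-2.99, at 38.4 against 373 CPM), Wisp2, a secreted CCN protein (-2.81), and Rps27rt (-2.56), which is near-identical to a ribosomal protein gene, so that its reads are uncertain.

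A gene that was broad over members in both genotypes was Timp1, the inhibitor of matrix metalloproteinases. It stood at 246 and 1789 CPM in the libraries labelled week 3 and week 6 Fas+/+ (log2 2.81) and at 471 and 2461 CPM in those of Fas-/- mice (2.36), with a UMI in 73.9, 97.4, 63.3 and 96.1% of members in that order. The other Col1a1 cells differed in the same direction, by 2.30 and 2.32. Of 14 contractile genes, 10 were past 2-fold higher in Fas+/+ members labelled week 6 than week 3 (2.8% of all genes), with a median log2 ratio of 1.28 (over all genes 0.07). In Fas-/- members 2 of 11 were (2.94% of all genes). Of the vascular smooth muscle markers measured, 5 of 6 were past 2-fold higher in Fas+/+ and 2 of 2 in Fas-/- members. The difference between the genotypes was not tested.

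Bulk RNA-seq of the same sort gave a readout with replicates that the rule had not used. Total counts ran from 11819700 to 25189096 per library, and 15773 genes were tested by the quasi-likelihood test of edgeR with Benjamini-Hochberg adjustment. Bulk measures all Lin- cells together, so that fewer members and less RNA per member cannot be told apart. The members are a small share of those cells, and their genes are also transcribed elsewhere in the sort.

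Cthrc1 was near absent in naive bulk libraries, at 0.388, 0.519, 0.287 and 0.736 CPM in replicates 1 to 4. At week 3 it stood at 5.84, 65.1, 64.8 and 46.2 CPM in Fas+/+ and at 32.4, 36.8, 24.4 and 12.6 CPM in Fas-/- mice, and at week 6 at 1.57, 3.57, 1.98 and 8.16 CPM and at 18.1, 15.5, 7.85 and 11.4 CPM. All 4 groups of bleomycin-instilled mice lay above naive mice without overlap. Cthrc1 rose over naive by 6.53 (SE 0.762, edgeR adjusted p = 7.45e-06) and 5.76 (SE 0.75, adjusted p = 4.29e-05) on the log2 scale at week 3 and by 4.75 (SE 0.741, adjusted p = 0.00122) at week 6 in Fas-/- mice. In Fas+/+ mice at week 6 it rose by 2.95 (SE 0.756, adjusted p = 0.0283), a call that was lost when any of 5 libraries was left out (naive replicates 1, 2 and 3, adjusted p 0.0707 to 0.0905, and week 6 Fas+/+ replicates 2 and 4, adjusted p 0.0668 and 0.11).

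At week 6 the mean of Cthrc1 was 13.2 ± 4.52 CPM (SD, n = 4) in Fas-/- and 3.82 ± 3.02 CPM in Fas+/+ mice, a log2 difference of 1.80 (SE 0.594) that was not called (edgeR adjusted p = 0.326, exact two-sided permutation p = 0.0571, where 0.0286 is the smallest p that 4 against 4 allows), and the groups overlapped. From week 3 to week 6 it fell in Fas+/+ mice by 3.58, as given above, and differed by -1.01 (SE 0.557, adjusted p = 0.267) in Fas-/- mice. The difference between these changes, the genotype-by-time interaction, was 2.57 (SE 0.807) and not called (adjusted p = 0.342). It was called without week 3 Fas+/+ replicate 1 (2.95, adjusted p = 0.0338).

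That library, and week 3 Fas-/- replicate 4, stood apart from their groups. They had the lowest Cthrc1, Spp1, Grem1, Fst, Thbs4 and Col11a1 of their groups, with the 6 markers summing to 207 CPM against 2370 to 3620 CPM and to 474 CPM against 2280 to 3280 CPM. They also had the highest sums of 10 endothelial markers, 8390 CPM against 2200 to 2970 CPM and 7660 CPM against 628 to 1040 CPM, with Cdh5 the most abundant. The sum in naive libraries was 175 to 445 CPM. The part of endothelial RNA in the differences between groups was not tested beyond leaving these libraries out. Without the pair (15952 genes tested), the interaction was 2.72 for Cthrc1 (SE 0.543, adjusted p = 0.0194) and 3.78 for Col11a1 (SE 0.728, adjusted p = 0.019), and Cthrc1 also fell from week 3 to week 6 in Fas-/- mice, by 1.24 (SE 0.366, adjusted p = 0.0286). The pair was left out after the data were seen, and it had the lowest Cthrc1 and Col11a1 of its groups, so these values are no independent test.

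The other markers rose at week 3 in both genotypes. Spp1 stood at 41.1 to 81.1 CPM in naive, 146, 1780, 3000 and 2180 CPM in week 3 Fas+/+ and 2030, 2700, 1840 and 273 CPM in week 3 Fas-/- libraries, a rise of 4.95 and 4.90 (edgeR adjusted p = 5.8e-05 and 0.00012). At week 6 it had fallen to 117 to 193 and 133 to 207 CPM, which did not differ by genotype (log2 -0.03, SE 0.613). At week 6 Grem1, the BMP antagonist, stood at 3.03, 4.79, 3.52 and 16 CPM in Fas+/+ and 45.1, 22.9, 19.4 and 21.5 CPM in Fas-/- mice, without overlap of the groups, although the difference of 2.00 (SE 0.758) was not called (adjusted p = 0.44, exact permutation p = 0.0286). Col11a1 stood at 1.45, 1.56, 0.893 and 6.70 CPM and at 25.6, 17.6, 6.55 and 24.3 CPM, a difference of 2.82 (SE 0.757, adjusted p = 0.188) with overlap at 1 library, which DESeq2 called.

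Thbs4 rose by 4.15 (SE 0.941, adjusted p = 0.00213) and 4.36 (SE 0.949, adjusted p = 0.00251) and Fst by 2.43 (SE 0.515, adjusted p = 0.0013) and 2.21 (SE 0.511, adjusted p = 0.00379) at week 3. By these edgeR calls, all 6 markers had risen over naive at week 3 in both genotypes, among 22.1% of all genes in Fas+/+ and 17.2% in Fas-/- mice. At week 6, Cthrc1 alone was called in Fas+/+ mice (3.57% of all genes) and Cthrc1, Grem1 and Col11a1 in Fas-/- mice (3.66%). From week 3 to week 6 all 6 fell in Fas+/+ mice (10.9% of all genes), and Spp1 and Fst in Fas-/- mice (4.54%). Between genotypes none of the 6 was called at either week or in the interaction, where 0, 3 and 2 had an unadjusted p under 0.05 and DESeq2 called 0, 1 and 0.

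**Figure D5:**
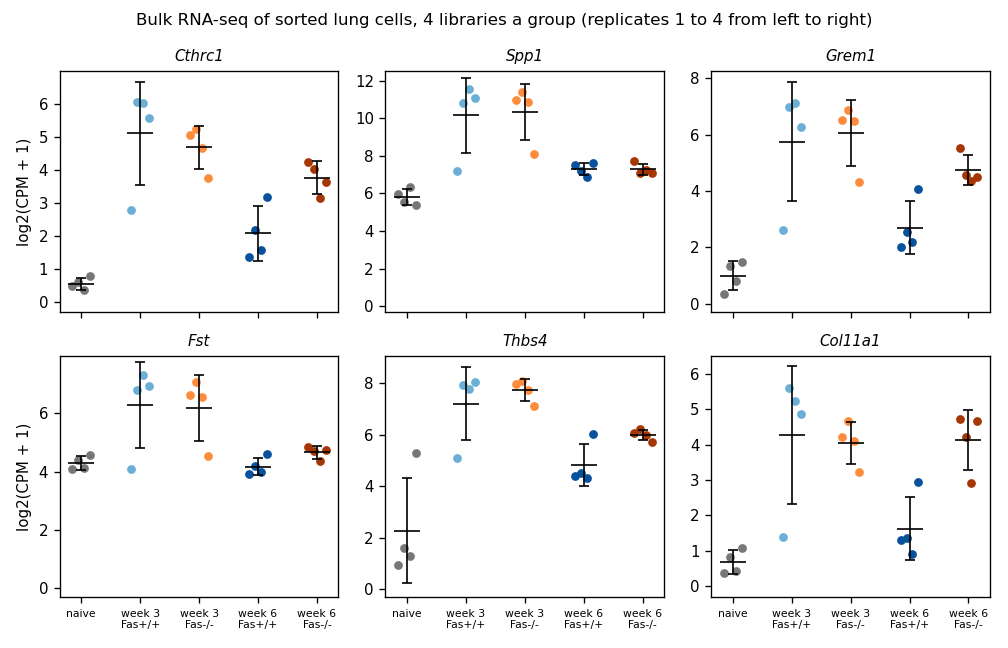
Level, log2(CPM + 1), of the 6 markers in the 20 bulk libraries, with points for replicates 1 to 4 from left to right and bars for the mean ± SD of the log2 values in each group. Week 3 libraries lie above naive ones for every marker apart from Fst in week 3 Fas+/+ replicate 1 and week 3 Fas-/- replicate 4 and Thbs4 in week 3 Fas+/+ replicate 1, and at week 6 Cthrc1, Grem1 and Col11a1 lie higher in Fas-/- than in Fas+/+ mice with overlap for Cthrc1 and Col11a1.

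The 30 genes highest in the members were followed in bulk, and all 30 passed the filter. Over naive, 27 rose at week 3 in Fas+/+ mice (22.1% of all genes) and 25 in Fas-/- mice (17.2%), and at week 6 7 rose and 1, Bpgm, fell in Fas+/+ (3.57 and 1.74%) and 15 rose in Fas-/- mice (3.66%). Red cell markers summed to 2980 to 9590 CPM in naive and 88.4 to 235 CPM in week 6 Fas+/+ libraries. The part of red cell RNA in the fall of Bpgm was not tested. The medians over the 30 were 1.95, 1.60, 0.49 and 1.23 on the log2 scale, against medians of all genes within 0.02 of 0. Cdkn2a rose by 4.33 (edgeR adjusted p = 0.000697) and 3.79 (0.0029) at week 3 and by 3.90 (0.0103) in Fas-/- mice at week 6. DESeq2 called a rise of Cdkn2a over naive at week 6 in Fas+/+ mice as well. Postn, Bpgm and Enpp1 were not called at week 3 in either genotype. Postn was abundant in naive bulk libraries, at 691 ± 114 CPM (SD, n = 4), against 566 to 656 CPM in the other groups, and was called in none of the 9 comparisons.

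From week 3 to week 6, 25 of the 30 fell in Fas+/+ mice (10.9% of all genes) and 1, Cotl1, in Fas-/- mice (4.54%), with medians of -1.64 and -0.57. Without the pair of libraries named above, left out after the data were seen, the counts were 28 (17.6%) and 14 (9.05%). Between genotypes, edgeR called none of the 30 at week 3 (0.171% of all genes either way), none at week 6 (0.0507%) and none in the interaction (0.00634%). The counts at an unadjusted p under 0.05 were 3, 13 and 11, among 1359, 1273 and 1210 of all 15773 genes. DESeq2 called 1 (Rflnb, lower), 2 (Col11a1 higher, Igfbp2 lower) and 2 (Rflnb positive, Igfbp2 negative), among 164, 170 and 100 genes in all. Without the pair of libraries, the interaction was called for 11 of the 30 (2.46% of all genes), positive for 10 of them, among them Col8a1, Col11a1, Col7a1, Col12a1 and Piezo2, and negative for Igfbp2. A positive value means that the change from week 3 to week 6 was less of a fall, or more of a rise, in Fas-/- than in Fas+/+ mice. Rflnb was then also lower in Fas-/- mice at week 3 (1.23% of all genes).

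Igfbp2 went its own way. It stood at 7.09 ± 2.06 CPM in naive, 59.4 ± 3.21 and 65.1 ± 14.1 CPM at week 3 and 143 ± 36.2 and 69.7 ± 13.2 CPM at week 6 in Fas+/+ and Fas-/- mice (SD, n = 4). It was the gene of the 30 that rose from week 3 to week 6 in Fas+/+ mice (1.26, SE 0.21, edgeR adjusted p = 0.000581). At week 6 its level in Fas-/- mice was below that in Fas+/+ mice without overlap (-1.03, SE 0.209), but this was not called (adjusted p = 0.0997, exact permutation p = 0.0286). In the members themselves it was likewise lower in the library labelled week 6 Fas-/-, at 139 against 243 CPM.

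Of the 10 genes lowest in the members, a part fell in bulk. At week 3, 9 fell in Fas+/+ mice (19.2% of all genes) and 4 in Fas-/- mice (14.8%), with medians of -0.98 and -0.52, and at week 6 Scn3a alone fell in Fas+/+ (1.74%) and in Fas-/- mice (2.81%). Inmt stood at 3380 ± 274 CPM in naive and 881 ± 383 and 1410 ± 219 CPM in week 3 Fas+/+ and Fas-/- libraries (SD, n = 4), a fall of 1.94 (SE 0.221, adjusted p = 6.03e-06) and 1.26 (SE 0.217, adjusted p = 0.000435). By week 6 it had risen again, by 1.53 (SE 0.218, adjusted p = 0.000215) and 0.82 (SE 0.215, adjusted p = 0.0256). From week 3 to week 6 all 10 rose in Fas+/+ mice (12% of all genes) and Inmt and Gsta3 in Fas-/- mice (4.48%). Of the wider list of 14 lipofibroblast markers, 11 and 9 fell at week 3, and 12 rose by week 6 in Fas+/+ mice.

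Wider gene lists also held called genes in bulk, where 22.1 and 17.2% of all genes rose and 19.2 and 14.8% fell at week 3 in Fas+/+ and Fas-/- mice, and 3.57 and 3.66% rose at week 6. Of 9 fibrillar collagens tested, 6 rose at week 3 in Fas+/+ and 4 in Fas-/- mice, and at week 6 none and 2 were above naive. Of 17 matricellular genes, 9 rose and 2 fell at week 3 in each genotype. Of 12 p53 targets and cell cycle inhibitors, 8 rose at week 3 in each genotype, and at week 6 6 in Fas+/+ and 8 in Fas-/- mice. All 14 proliferation genes rose at week 3 in Fas+/+ mice, 9 in Fas-/- mice and none at week 6. Markers of other cells moved with these groups, all 10 endothelial and 10 of the immune markers having risen at week 3 in Fas+/+ mice. Red cell markers summed to a mean of 5050 CPM in naive libraries. Their means were 46.2 and 21 CPM at week 3 and 135 and 38.6 CPM at week 6 in Fas+/+ and Fas-/- mice. The part of the RNA of other cells in the list counts was not tested.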

How the data were processed

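Lin- mouse lung cells were measured by single-cell RNA-seq (5 libraries) and bulk RNA-seq (5 groups of 4 libraries), and each library was grouped by its deposited label. For single cells the authors deposited UMI counts per gene and barcode from Cell Ranger on GRCm38 (31053 features, 13900 barcodes, 6098715 to 39092679 UMIs per library). For bulk they trimmed reads with skewer, aligned them with HISAT2 to GRCm38, counted them with HTSeq on Ensembl genes and deposited raw counts, which were used. The deposited normalized signal table was not used. The submitters' notes also name DESeq2. The kit is stranded, and the strand setting of the counting is not given in the sources used here.

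The filter on cells (200 to 7500 genes, no more than 20% of UMIs mitochondrial) left 12059, with median UMIs of 5768 to 8896 per library. UMIs were summed over members and other Col1a1 cells in each library and scaled to CPM, and ratios used a pseudocount of 10 CPM over genes with at least 20 UMIs (50 in the pair between libraries). These are descriptions without a test, since cells are not replicates. Exact intervals (95%, scipy 1.17.1) and limits for a count of 0 (3 counts) cover counting error only. Scrublet, run in scanpy 1.11.5 to find doublets, marked 0.315% of cells, and no cell was removed.

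Bulk counts were fitted with edgeR 4.0.16 (R 4.3.3) on all 5 groups without covariates, with TMM normalization and filterByExpr (minimum count 10), by the quasi-likelihood test at an adjusted p of 0.05 (Benjamini-Hochberg over all genes tested). Single genes were also tested by exact permutation of the group means of log2(CPM + 1), two-sided. DESeq2 1.42.0 was an alternative. The scripts were tested on simulated data. Genes named are the markers, the 30 highest and 10 lowest genes of members by their least favourable library (the first 15 and all 10 by name), the most abundant genes of 30 lists or those past 2-fold, and the 5 genes highest and lowest between libraries. Genes named beyond these rules, such as Lpl, Postn and Igfbp2 in bulk and Timp1 in both genotypes, were picked after their values were seen. The values of 1 of the 30 highest genes and of 1 list are not reported here, and counts over the 30 genes include the former. The members and lists were chosen with earlier results of these data known. Motifs were searched in RefSeq promoter windows of GRCm38.p6, where Cthrc1 and Fst were not matched. Figures used matplotlib 3.10.9.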

Additional observations from a re-analysis of the deposited data

Results flagged for a closer look

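Among 165 sets of 4 bulk libraries (29 genes and 4 marker lists in 5 groups), 17 had a library far from the other 3. The cut would pass about 1 in 20 sets of independent, normally distributed values. CPM were not shown to be so distributed and the sets share libraries, so no excess over chance can be read from the 17. Week 3 Fas+/+ replicate 1 accounted for 4 of them, with the lowest Fmod of its group (94.7 CPM) and the highest Fgfr3 (552 CPM), endothelial marker sum (8390 CPM) and epithelial marker sum (715 CPM). Week 3 Fas-/- replicate 4 accounted for 2, with the lowest Ces1d (360 CPM) and the highest endothelial marker sum (7660 CPM). In week 6 Fas+/+ mice, replicate 4 stood highest in Grem1 (16 CPM), Thbs4 (64 CPM), Col11a1 (6.7 CPM) and Fmod (412 CPM), and replicate 2 in the immune marker sum (138 CPM). In week 6 Fas-/- mice, replicate 1 stood highest in Grem1 (45.1 CPM), replicate 2 in the endothelial marker sum (2590 CPM) and replicate 3 in Scn3a (159 CPM). Among naive libraries, replicate 4 stood highest in Thbs4 (38.3 CPM) and replicate 3 in the immune marker sum (7.12 CPM). Ces1d was highest in week 3 Fas+/+ replicate 4 (489 CPM).

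Between weeks, the level over all kept single cells went the other way than a called change in bulk for 6 markers in Fas+/+ and for Spp1 and Fst in Fas-/- mice, a difference that was not tested. On the log2 scale, the single-cell library labelled week 6 Fas+/+ was higher than that labelled week 3 by 2.94 for Cthrc1, 3.75 for Spp1, 4.06 for Grem1, 2.81 for Fst, 2.78 for Thbs4 and 2.91 for Col11a1. In Fas-/- mice the values were 4.16 for Spp1 and 2.46 for Fst. Outside the members, 54 cells of the library labelled week 6 Fas+/+ held at least 2 Cthrc1 UMIs and a Cdh5 UMI, against 2 to 5 in the other bleomycin libraries.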

How the results depend on the processing

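In single cells, some orders turned: the week 6 share of members was higher in Fas-/- mice over all kept cells but lower over cells that met the rest of the rule. Of the genes past 2-fold at week 3, more were lower than higher in Fas-/- members (47 and 41), but fewer after thinning (15 and 24), without shared barcodes (24 and 45) and at 3 or more Cthrc1 UMIs (41 and 43), and at week 6 over week 3 in Fas-/- mice the order (173 lower, 247 higher) turned with a pseudocount of 50 CPM (58 and 45). Within 1.5 times or 1 interval of the main value were 175 of 244 alternative values. The 175 include the counts against the other Col1a1 cells with 1 library left out, which could not fall. They also include those without cells called doublets, none of which was a member. At 1 or more Cthrc1 UMIs, the naive library had a share of 0.498%. The shares of members (0.863, 1.88, 3.58 and 5.23% in the order used above) were 1.61, 3.34, 5.86 and 8.15% at 1 or more Cthrc1 UMIs and 2.28, 5.48, 12.0 and 10.5% of cells that met the rest of the rule. In Fas-/- libraries labelled week 3 and week 6 they were 1.38 and 4.35% at 3 or more UMIs and 1.27 and 3.64% after thinning. Against the other Col1a1 cells, the 55 higher genes were 22 with a pseudocount of 50 CPM, 29 with a minimum of 50 UMIs and 16 after thinning, and the 166 lower genes 418 and 66 with a pseudocount of 1 and 50 CPM. With 1 library left out they were 62 to 72 and 184 to 205. A gene had to pass in every library, so these counts could not fall when a library was left out.

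Between libraries, the counts of higher and lower genes at week 6 (46 and 23) were 129 and 95 with a pseudocount of 1 CPM, 11 and 2 with 50 CPM, and 26 higher after thinning. At week 3 (41 and 47) they were 25 and 26 with 50 CPM, 24 and 28 with a minimum of 100 UMIs, 24 and 15 after thinning, and 24 lower without shared barcodes. Week 6 over week 3 in Fas+/+ (227 and 131) gave 620 and 248 with 1 CPM, 47 and 43 with 50 CPM, 136 and 56 after thinning, and 354 higher without shared barcodes, and in Fas-/- (247 and 173) 562 and 290, 45 and 58, and 134 and 75. Leaving out shared barcodes or the pair of bulk libraries was chosen after seeing the data.

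Of the 30 member genes in bulk, DESeq2 called 1 higher at week 6 between genotypes, 5 lower from week 3 to week 6 in Fas-/- mice and 2 in the interaction. For the fall in Fas-/- mice (1 gene), the count was 0 without the filter, 2 when only the compared groups were fitted and 14 without the pair of libraries, and the interaction then gave 11. The rise at week 6 in Fas+/+ mice (7) was 11 when only these groups were fitted. The first 15 of the 30 genes gave 13, 12, 3 and 8 rises over naive and 11 and 0 falls from week 3 to week 6. With 1 library left out, the rises over naive were 27 to 28, 20 to 25, 4 to 8 and 12 to 15, the falls 17 to 28 and 0 to 2, the genotype differences 0 to 0, and the interaction 0 to 5, with 5 without week 3 Fas+/+ replicate 1. The 4 rises at week 6 in Fas+/+ mice came without naive replicate 3 or week 6 Fas+/+ replicates 2 or 4. Normalization by RLE moved the share of higher calls between genotypes at week 6 from 50 to 36.4%.

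Same-numbered bulk libraries did not clearly deviate together (40 pairs, correlation -0.61 to 0.532, median 0.0544, 19 over 0.1). The median was -0.0177 for libraries of other numbers, and 7 of 20 libraries were closest to one of their own number. This check is too weak to settle whether the numbers pair the libraries. With the replicate number as a block, the calls over all genes moved from 27 to 45 between genotypes at week 3 and from 8 to 0 at week 6, and the falls of member genes in Fas-/- mice from 1 to 2. For members, depth limits what can be read in the libraries labelled week 3, where 23 and 49 cells leave few genes measured.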
